A study of Mus musculus with 8 samples.

Results

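Regulators that act in the hair placode and the hair germ of mouse skin, 10 genes in all, were followed through 8 bulk RNA-seq libraries. They are Edar, Edaradd, Eda, Lhx2, Sox9, Foxi3, Bmp2, Bmp4, Cdh3 and Fgf20, taken by symbol from the 23432 gene symbols listed in every library. All 10 were listed, and all 10 passed the filter on low counts in each of the 2 experiments. The first experiment compared control with MOF cKO (MOFfl/fl/K14Cre) embryos at E16.5, in K14-H2BGFP+ epithelial cells of the backskin enriched by FACS. The second compared control with Kansl1 cKO (Kansl1fl/fl/K14Cre) pups at P0.5, in total epidermal cells of sheets that Dispase had freed from the dermis. Every group had 2 libraries. MOF is the acetyltransferase of lysine 16 on histone H4, and its gene is listed as Kat8. KANSL1 is a subunit of NSL, one of the protein complexes that contain MOF. Cre was driven by the Krt14 promoter, which is active in keratinocytes of the basal layer, so both deletions were directed to the epithelium. The E16.5 cells of both genotypes carried the GFP reporter fused to histone H2B. Controls were littermates on a mixed background of C57Bl/6J and CD-1, and the labels name them only as control. The labels do not say whether the libraries of a group came from separate animals. The p-values set each difference against the spread between these libraries, estimated partly from all genes. Within an experiment a comparison had 2 residual degrees of freedom, and 5.31 (MOF) or 4.81 (Kansl1) more came from all genes. The controls of each experiment differed in Xist, the X-inactivation RNA of female cells, so they were not the same animal, and for the cKO groups this remains unstated.

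Hair follicles begin as placodes, local thickenings of the embryonic epidermis, which grow down as hair germs over a cluster of dermal cells. WNT signals start the placode. The ligand EDA then binds its receptor EDAR, the adaptor EDARADD passes the signal on to NF-kB, and the placode in turn secretes FGF20, which gathers the dermal condensate below it. BMPs restrain placode fate around each site, and the transcription factors LHX2, SOX9 and FOXI3, together with the adhesion molecule P-cadherin (Cdh3), mark the cells that become follicle.

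The libraries held between 9108709 and 27561688 counts on genes. Levels are given in CPM, counts scaled to a common library size with TMM factors within each experiment, and 1 count stood for between 0.0326 and 0.115 CPM. With 2 libraries a group, their number limits the precision. A gene was called when edgeR's quasi-likelihood test gave an adjusted p of 0.01 or lower over all genes tested and the fold change was over 1.5. Counts over the whole gene did not resolve the deleted exons. Counts of Kat8 were 443 and 408 in the controls against 248 and 329 in MOF cKO (log2 fold change -0.14, adjusted p = 0.554 from edgeR). In CPM these were 14.4 and 14.7 against 12.4 and 13.9. Counts of Kansl1 were 355 and 745 against 649 and 387 in Kansl1 cKO (log2 fold change -0.52, adjusted p = 0.242 from edgeR). For each of these genes, both knockout libraries lay below both controls in CPM. The libraries were not matched for sex, since E16.5 control replicate 1 had 1518 CPM of Xist and the remaining libraries of that experiment 9.99 to 12.0 CPM. At P0.5, control replicate 2 had 1.23 CPM of it and the others 371 to 427 CPM. The basal keratins Krt5 and Krt14 were abundant in every library, at 4384 CPM or more.

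In MOF cKO, 3 of the 10 regulators were called lower: the receptor Edar, the transcription factor Lhx2 and the ligand Bmp4. None was called higher. Among all 13956 genes tested, 9.59% were called lower and 10% (1395 genes) were called higher. Of the regulators, 9 had a log2 fold change below 0, and their median was -0.58, beside -0.02 over all genes. In 6 of them (Edar, Edaradd, Lhx2, Foxi3, Bmp2 and Bmp4) both MOF cKO libraries lay below both controls, a pattern shown by 37.7% of all genes tested. In bulk RNA, fewer cells of a type and less RNA per cell cannot be told apart.

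**Figure D1:**
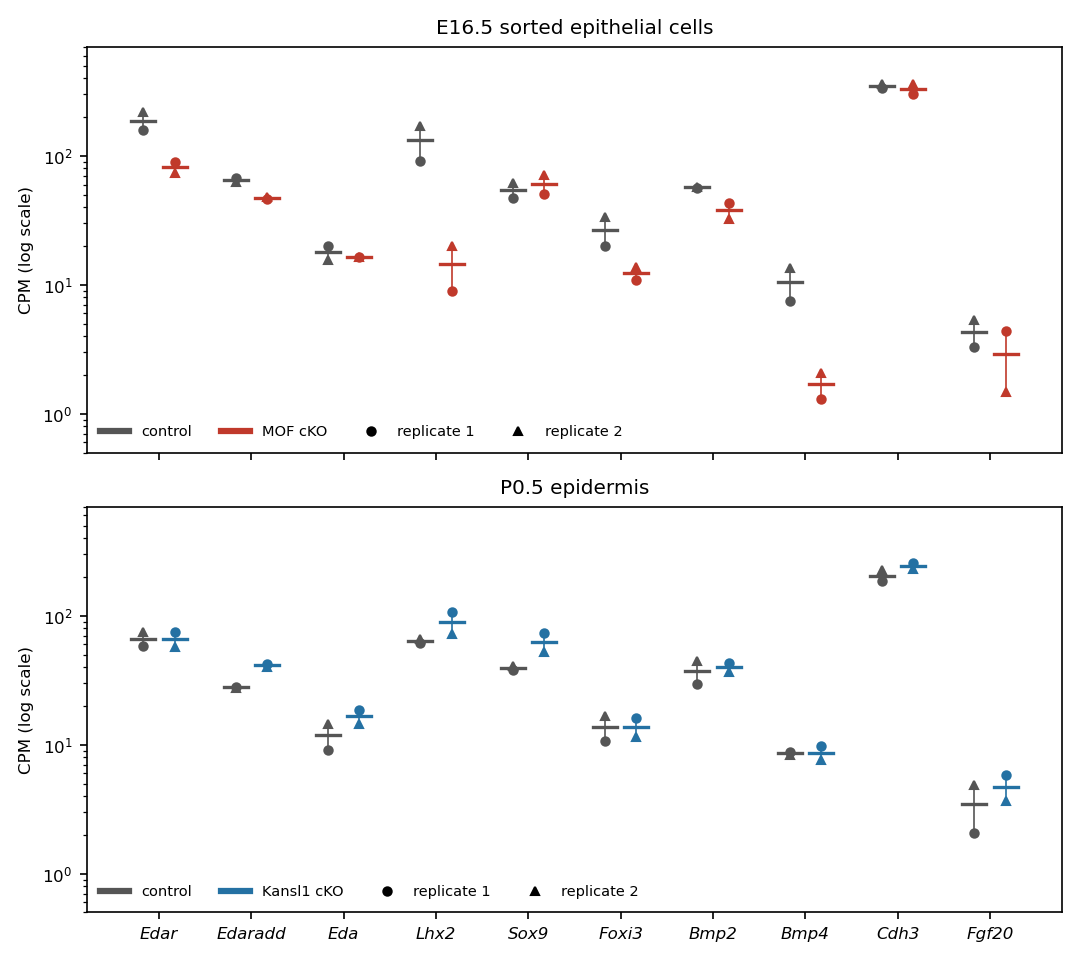
CPM of each regulator in every library (log axis), with E16.5 sorted cells in the upper panel and P0.5 epidermis in the lower one. Circles are replicate 1, triangles replicate 2, horizontal bars group means. Lhx2 and Bmp4 show the widest gap between control and MOF cKO at E16.5, while no such gap is seen for Kansl1 cKO.

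The 3 called genes lie on different chromosomes, and the sequence around each start site is shown to place these genes in the genome and to locate matches to the factors of their pathways. The windows come from RefSeq (GRCm38.p6, the build of mm10) and run from 250 bases before the start site to 50 after it, 5′ to 3′ on the strand of the gene. Edar lies at chr10:58675647-58675946 on the minus strand, Lhx2 at chr2:38339031-38339330 on the plus strand, and Bmp4 at chr14:46390620-46390919 on the minus strand. Capitals mark matches, on either strand, to the LEF and TCF core (CTTTGAA or CTTTGAT) or to a loose NF-kB pattern (GGG, any 5 bases, then CC). This pattern is looser than the NF-kB consensus, so a match to it need not be an NF-kB motif.
Edar: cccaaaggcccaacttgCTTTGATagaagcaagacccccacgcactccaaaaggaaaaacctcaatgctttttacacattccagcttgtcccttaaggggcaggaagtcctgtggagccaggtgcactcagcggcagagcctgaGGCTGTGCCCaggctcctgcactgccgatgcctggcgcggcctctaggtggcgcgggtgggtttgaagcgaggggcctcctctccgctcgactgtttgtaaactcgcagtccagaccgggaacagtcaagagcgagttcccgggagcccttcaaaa
Lhx2: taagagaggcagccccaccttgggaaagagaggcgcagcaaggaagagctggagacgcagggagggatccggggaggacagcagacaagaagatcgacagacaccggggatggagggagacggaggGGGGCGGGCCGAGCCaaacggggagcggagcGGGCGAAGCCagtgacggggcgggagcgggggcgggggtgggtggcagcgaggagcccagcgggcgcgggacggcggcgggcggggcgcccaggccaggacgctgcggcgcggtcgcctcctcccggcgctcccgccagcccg
Bmp4: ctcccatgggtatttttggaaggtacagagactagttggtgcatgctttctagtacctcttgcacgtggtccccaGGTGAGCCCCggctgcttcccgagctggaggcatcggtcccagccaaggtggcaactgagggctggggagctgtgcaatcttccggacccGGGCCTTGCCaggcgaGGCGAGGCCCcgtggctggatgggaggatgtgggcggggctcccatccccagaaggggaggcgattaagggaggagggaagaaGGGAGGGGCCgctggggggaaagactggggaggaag
The Edar window holds 1 LEF and TCF core, CTTTGAT, at position -233 from the start site. It holds 1 match to the loose NF-kB pattern, at -106 on the opposite strand. The Lhx2 window holds matches to the loose NF-kB pattern at -124, -119 and -93, of which the first pair overlap. The Bmp4 window holds them at -175, -85, -69 and 15. Of 32851 promoters of the same length, 8.65% held the LEF and TCF core and 50.8% the NF-kB pattern, so a match to the latter is common. The windows held 14 CpG dinucleotides for Edar, 34 for Lhx2 and 12 for Bmp4, against a median of 7 over all promoters. A match describes letters in this window and is not a measured binding site. Windows were also found for Edaradd, Eda, Foxi3 and another start site of Lhx2, and none of those held the LEF and TCF core.

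Edar, the receptor for EDA, was at 158 and 218 CPM in control and at 90.5 and 74.2 CPM in MOF cKO. The groups did not overlap, and the control mean of 188 ± 42.3 CPM (SD, n = 2) stood against 82.3 ± 11.5 CPM (SD, n = 2) in MOF cKO. Edar fell 2.28-fold (log2 fold change -1.19, standard error 0.176, adjusted p = 0.00236 from edgeR), with a 95% confidence interval from -1.60 to -0.78. Edaradd, the cytoplasmic adaptor that binds EDAR through its death domain, was at 67.4 and 62.2 CPM in control and at 46.1 and 47.9 CPM in MOF cKO. Its libraries were close within each genotype and did not overlap between them, but the difference of -0.46 on the log2 scale (standard error 0.116, adjusted p = 0.0177 from edgeR) passed neither threshold. The 95% confidence interval of Edaradd, from -0.73 to -0.19, lay below 0. Eda, the ligand, was at 20.0 and 15.6 CPM in control and at 16.51 and 16.3 CPM in MOF cKO, so both knockout libraries lay between the controls. Its log2 fold change was -0.12 (95% confidence interval -0.55 to 0.32, adjusted p = 0.643 from edgeR). Eda lies on chromosome X, and without control replicate 1, the library high in Xist, its log2 fold change was 0.069. The receptor therefore passed the test, while the adaptor and the ligand did not. Whether the changes of these genes differ from each other was not tested.

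Among the transcription factors, Lhx2, a LIM homeobox factor of the early follicle and later of its stem cells, had the largest fall of the 10. It was at 91.4 and 172 CPM in control and at 9.04 and 19.9 CPM in MOF cKO. The libraries of a genotype differed from each other, and the lowest control was still above the highest knockout library by a wide margin. The control mean of 132 ± 57.1 CPM (SD, n = 2) stood against 14.5 ± 7.68 CPM (SD, n = 2) in MOF cKO. Lhx2 fell 9.05-fold (log2 fold change -3.18, standard error 0.414, adjusted p = 0.00149 from edgeR). Its 95% confidence interval ran from -4.15 to -2.21, below that of Edar. Foxi3, a forkhead factor known as a target of EDA signalling, was at 19.9 and 33.6 CPM in control and at 10.9 and 13.7 CPM in MOF cKO. Its log2 fold change of -1.12 (standard error 0.269) was close to that of Edar, but the adjusted p of 0.0151 from edgeR missed the threshold. DESeq2 gave Foxi3 an adjusted p of 0.000923, and 7 of the 14 alternative settings called it lower. Sox9, an HMG-box factor of the first follicle stem cells, was at 47.1 and 61.6 CPM in control and at 50.3 and 71.3 CPM in MOF cKO. The groups overlapped, and the log2 fold change was 0.16 (95% confidence interval -0.30 to 0.63, adjusted p = 0.547 from edgeR), which turned to -0.14 when libraries were scaled by size alone.

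The ligands of 2 BMP genes and 1 FGF gene were among the regulators. Bmp4, which is produced by the dermal condensate and by parts of the follicle epithelium, had 229 and 377 counts in the controls against 26 and 49 in MOF cKO. These were 7.47 and 13.6 CPM against 1.31 and 2.07 CPM, with no overlap. Bmp4 fell 6.18-fold (log2 fold change -2.63, standard error 0.419, adjusted p = 0.00317 from edgeR), with a 95% confidence interval from -3.61 to -1.64. Of its 2248 exon bases, 89 are shared with exons of genes on the other strand, and the strand setting of the counting is not given in the sources used here. Bmp2, a ligand of the placode epithelium itself, was at 56.7 and 57.4 CPM in control and at 43.5 and 32.3 CPM in MOF cKO. The groups did not overlap, with a log2 fold change of -0.59 (standard error 0.160), a 1.51-fold difference whose adjusted p of 0.0236 from edgeR missed the threshold. Of the 14 alternative settings, 6 called Bmp2 lower. Fgf20, the placode's signal to the dermis, was low in every library, with 101 and 149 counts in the controls and 87 and 35 in MOF cKO. Its libraries overlapped, and the log2 fold change of -0.57 had a 95% confidence interval from -1.89 to 0.74 (adjusted p = 0.448 from edgeR), so neither no change nor a fall as large as that of Edar lay outside it. Of the 1678 exon bases of Fgf20, 202 are shared with overlapping genes.

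Cdh3, which encodes P-cadherin of the placode and the hair germ, had the highest level per length of the 10 at E16.5. It was at 336 and 359 CPM in control and at 300.3 and 363 CPM in MOF cKO. The groups overlapped, and the 95% confidence interval of the log2 fold change, from -0.35 to 0.22, lay within the fold threshold on both sides (estimate -0.068, adjusted p = 0.687 from edgeR).

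**Figure D2:**
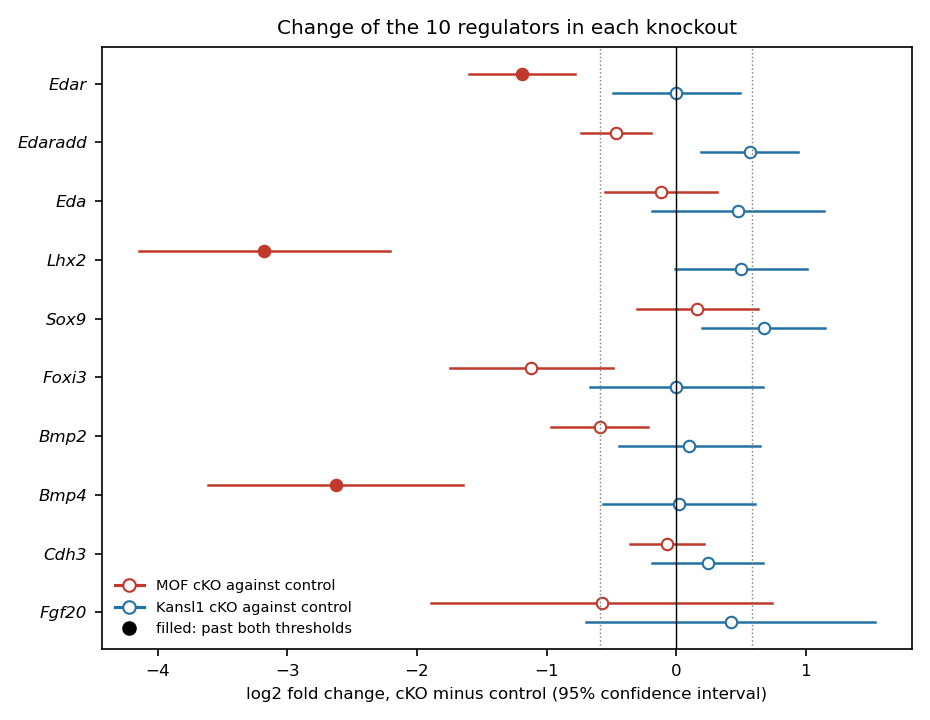
Log2 fold change of each regulator (cKO minus control) with its 95% confidence interval from edgeR, for MOF cKO in red and Kansl1 cKO in blue. Filled points passed both thresholds and dotted lines mark a 1.5-fold change. Filled points are seen for Edar, Lhx2 and Bmp4 in MOF cKO only.

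Edar, Lhx2 and Bmp4 were called lower in MOF cKO in each of the 14 alternative settings, including each of those that left out 1 library, where the lone library of a group is assumed to vary like those of the other. Their log2 fold changes ranged over these settings from -1.50 to -0.94 for Edar, from -3.87 to -2.65 for Lhx2 and from -3.01 to -2.13 for Bmp4. E16.5 control replicate 2 was the higher control in 8 of the 10 regulators, whereas 50.1% of all genes tested were higher in that library.

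Markers of other cell types also moved at E16.5. Suprabasal markers (6 of 7 listed) summed to between 3305 and 4075 CPM in control and between 9058 and 9969 CPM in MOF cKO, and 5 of the 6 were called higher. Of 8 macrophage markers, 6 were called higher, with sums of 19.3 to 44.4 CPM in control and 94.8 to 124 CPM in MOF cKO. The 5 Merkel cell markers summed to between 39.9 and 40.1 CPM in control and between 13.9 and 15.8 CPM in MOF cKO, and 1 of them, Krt8, was called lower. Of 7 basal markers, with sums of 35599 to 37350 CPM in control and 31285 to 38462 CPM in MOF cKO, only Krt15 was called lower. Markers of the dermal condensate, a source of Bmp4, summed to between 2.28 and 4.19 CPM in control and between 11.6 and 12.3 CPM in MOF cKO. Most of that difference lay in Inhba (0.424 and 0.0361 CPM in the controls, then 4.57 and 2.75 CPM) and Crabp1 (1.17 and 2.89 CPM, then 4.82 and 6.39 CPM). Of the 5 tested, edgeR called 0, and DESeq2 called 1, Inhba, higher. Fibroblast markers summed to between 934 and 1568 CPM in control and between 1553 and 2169 CPM in MOF cKO, so the sums overlapped. Of these 8 markers, edgeR called 0, and DESeq2 called 2, Pdgfra and Lum, higher. For Dcn both MOF cKO libraries lay below both controls (log2 fold change -0.30), without a call. The sums of melanocyte markers overlapped, at 23.9 to 55.3 CPM and 26.3 to 89.1 CPM. The 5 endothelial markers were at 6.16 to 7.22 CPM in control and 10.8 to 22.3 CPM in MOF cKO, with 1 called higher, and the 5 skeletal muscle markers at 1.11 to 1.81 CPM and 1.96 to 18.9 CPM. No marker was at 0 in all 4 libraries. Over all 55 markers tested, DESeq2 called 3 lower and 18 higher. The part of these shifts in the falls of Edar, Lhx2 and Bmp4 was not tested.

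Further genes of the same pathways were counted by list. Among 19 further genes of the EDA and NF-kB pathway, 0 were called lower and 3 higher in MOF cKO (15.8% higher, beside 9.59% of all genes called lower and 10% higher), with a median log2 fold change of 0.30. Eda2r, the receptor for the other main isoform of ectodysplasin, rose from 48 and 30 counts to 523 and 830, a log2 fold change of 4.52 (adjusted p = 0.000176 from edgeR). The NF-kB subunits Relb and Rela rose by 1.15 and 0.70 on the log2 scale. Of the 19 genes, 13 had a log2 fold change above 0 and 6 below. Those 6 were Nfkbie (-0.67), Tnfrsf19 (-0.54), Tab1 (-0.53), Ikbkb (-0.51), Ikbkg (-0.44) and Chuk (-0.33). None of them was called, and in each both MOF cKO libraries lay below both controls. NF-kB is known to serve many receptors besides EDAR.

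Of 27 tested genes of the BMP pathway, 0 were called lower and 4 higher (14.8%, beside the same shares of all genes), with a median log2 fold change of 0.11. Id2 and Id1, immediate targets of BMP signalling, rose by 1.28 and 1.09 on the log2 scale, while Bmp4 fell. The related genes Id3 (0.27) and Id4 (-0.77) were not called, and for Id4 both MOF cKO libraries lay below both controls. Msx1, Msx2, Smad6 and Smad7 lay between -0.37 and 0.16, with none of them called. The antagonist Fst rose by 1.11, and the signal transducer Smad1 by 0.65. Of 19 tested FGF pathway genes, 0 were called lower and 2 higher (10.5%, close to the 10% of all genes), with a median of 0.13. They were the transcription factor Etv4, by 1.88, and Fgfbp1, a carrier that releases FGFs from the matrix, by 1.12. Of the 19, 9 had a log2 fold change below 0 and 10 above. For the receptors Fgfr1 (-0.76), Fgfr3 (-0.54) and Fgfr2 (-0.35) both MOF cKO libraries lay below both controls. EdgeR called none of them, whereas DESeq2 called Fgfr1 lower (adjusted p = 0.00110). Fgfr4, with 12 to 18 counts a library, was at 0.66. Of 15 genes of cadherin and catenin junctions, 0 were called lower and 5 higher (33.3%), with a median of 0.46. Among them, Pvrl4 and Pvrl1, which encode nectins, rose by 1.63 and 0.99, Zyx by 1.49 and Jup, which encodes plakoglobin, by 0.68, beside a Cdh3 that did not pass the test.

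Other genes of the placode, germ and follicle gave 13 called lower and 1 called higher of 35 tested, 37.1% lower beside 9.59% of all genes, with 28 below 0 and a median log2 fold change of -0.61. The largest falls were those of Tgfb2, a ligand of the placode (-3.13), the T-box factor Tbx1 (-2.66), Shh, the growth signal of the hair germ (-2.59), and Nfatc1, a factor of follicle stem cells (-2.47). Shh was at 43.5 and 81.0 CPM in control and at 9.94 and 10.8 CPM in MOF cKO. Ctgf, a target of WNT and YAP signalling, was the gene called higher (2.66). All these values came from edgeR's quasi-likelihood test over all genes.

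**Figure D3:**
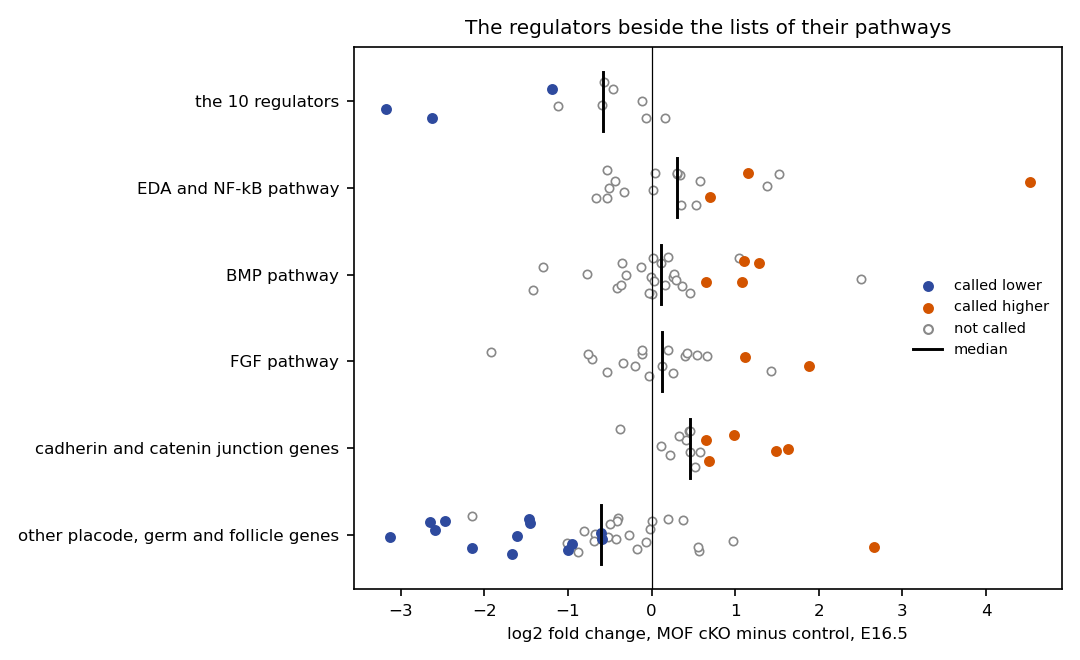
Log2 fold change in MOF cKO of the 10 regulators and of the tested genes of 5 lists, each point a gene and each black bar a median. Blue points were called lower, orange points higher, and open grey points were not called. Blue points lie in the regulators (3) and the other placode, germ and follicle genes (13). In the remaining lists the called genes are all orange, and most genes are open grey points.

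In Kansl1 cKO no regulator was called, lower or higher. Of all 13031 genes tested, 0 were called in either direction by edgeR (smallest adjusted p 0.110), while at an unadjusted p under 0.05 there were 1077 lower and 968 higher, and DESeq2 called 66 lower and 35 higher. The regulators' log2 fold changes were above 0 in 9 of 10, with a median of 0.33 beside 0.01 over all genes. In 4 of them (Edaradd, Lhx2, Sox9 and Cdh3) both Kansl1 cKO libraries lay above both controls, as they did in 26.0% of all genes tested. In 0 of them did both lie below, beside 22.7% of all genes.

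The 3 regulators that fell in MOF cKO had no such difference here. Edar was at 57.9 and 74.2 CPM in control and at 75.1 and 57.2 CPM in Kansl1 cKO, and its 95% confidence interval ran from -0.49 to 0.49 (estimate 0.0017, adjusted p = 0.998 from edgeR). Bmp4 was at 8.82 and 8.34 CPM in control and at 9.69 and 7.67 CPM in Kansl1 cKO, with an interval from -0.56 to 0.61 (adjusted p = 0.976 from edgeR). Neither interval reached the falls estimated for MOF cKO. Lhx2 was at 61.9 and 65.8 CPM in control and higher in both knockout libraries, at 107.6 and 72.6 CPM. Its log2 fold change of 0.50 had an interval from -0.011 to 1.01 (adjusted p = 0.328 from edgeR).

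Edaradd had the smallest adjusted p of the 10, with 28.1 and 27.7 CPM in control and 42.6 and 40.0 CPM in Kansl1 cKO. The libraries were again close within each genotype, but the log2 fold change of 0.57 (standard error 0.158, interval 0.19 to 0.94) had an adjusted p of 0.217 from edgeR. Sox9 was at 37.9 and 40.6 CPM in control and at 72.9 and 52.3 CPM in Kansl1 cKO (log2 fold change 0.67, interval 0.20 to 1.15, adjusted p = 0.227 from edgeR). These were the 2 regulators whose interval lay wholly above 0, and neither passed the correction over all genes. Eda was at 9.05 and 14.5 CPM in control and at 18.7 and 14.4 CPM in Kansl1 cKO (log2 fold change 0.48, adjusted p = 0.457 from edgeR). Without control replicate 2, the library low in Xist, the value for Eda was 0.84. The control high in Xist was thus the lower one for Eda here, and the higher one at E16.5. The part of sex in the values of Eda was not tested. Cdh3 was at 185 and 225 CPM in control and at 255 and 230.3 CPM in Kansl1 cKO (log2 fold change 0.24, adjusted p = 0.549 from edgeR). Foxi3, at 10.8 and 16.7 CPM against 16.0 and 11.5 CPM, and Bmp2, at 29.6 and 44.4 CPM against 43.2 and 36.4 CPM, overlapped between genotypes. Their log2 fold changes were -0.00051 and 0.10, with adjusted p of 0.999 and 0.869 from edgeR. Fgf20, with 18 and 75 counts in control and 120 and 46 in Kansl1 cKO, overlapped as well (log2 fold change 0.42, adjusted p = 0.708 from edgeR), and its interval from -0.69 to 1.54 was the widest.

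All 10 regulators were higher in Kansl1 cKO replicate 1 than in replicate 2, whereas 50.1% of all genes tested were. Control replicate 2 was the higher control in 8 of the 10, beside 53.6% of all genes. The suprabasal keratin Krt10 had the opposite order, at 18269 CPM in Kansl1 cKO replicate 1 and 30198 CPM in replicate 2, and at 17195 CPM in control replicate 2 and 29902 CPM in replicate 1. The part of this in the spread of the regulators was not tested. Dermal condensate markers summed to between 13.5 and 24.5 CPM in control and between 4.58 and 6.10 CPM in Kansl1 cKO, with Gal at 0 in every library. Fibroblast markers were at 1122 to 1784 CPM in control and 753 to 941 CPM in Kansl1 cKO, melanocyte markers at 480.2 to 545 CPM and 1068 to 1137 CPM, and macrophage markers at 152 to 178 CPM and 239 to 259 CPM. Skeletal muscle markers ranged from 4.27 to 218 CPM in control and from 2.45 to 2.66 CPM in Kansl1 cKO. The high sum was that of control replicate 1, which had 1054 counts of Acta1 against 23 in control replicate 2. Replicate 1 was also the higher control for Col1a1 (400 against 196 CPM) and Col3a1 (661 against 306 CPM). Dcn had the opposite order (297 against 397 CPM). Suprabasal sums overlapped, at 42658 to 76139 CPM and 43518 to 72985 CPM. Basal sums were 18517 to 19528 CPM in control and 17578 to 17829 CPM in Kansl1 cKO, endothelial sums 4.01 to 6.65 CPM and 2.92 to 3.44 CPM, and Merkel cell sums 11.0 to 11.3 CPM and 7.19 to 9.83 CPM. Of 52 markers tested, edgeR called 0, whereas DESeq2 called 6 lower and 3 higher. Those lower were the fibroblast genes Col1a1, Col3a1, Pdgfra, Fbn1 and Col1a2 and the condensate gene Sox18, and those higher the melanocyte genes Dct, Tyrp1 and Pmel. Their part in the values of the regulators was not tested. The pathway lists gave 0 called genes in either direction by edgeR and by DESeq2, with medians of 0.04 for 18 tested EDA and NF-kB genes, 0.34 for 25 BMP genes, 0.17 for 16 FGF genes, 0.10 for 15 junction genes and 0.21 for 35 other placode, germ and follicle genes.

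Whether the effects of the deletions differ was tested for each regulator in 1 edgeR fit over all 8 libraries, as the MOF effect minus the Kansl1 effect. The 2 deletions were studied at different stages and in differently isolated cells, so gene, stage and isolation cannot be told apart in this difference. It passed an adjusted p of 0.01 for 2 of the 10, Lhx2 and Edaradd, both with the MOF effect below the Kansl1 effect, as in 1.17% of the 14565 genes tested. The difference was -3.71 on the log2 scale for Lhx2 (standard error 0.547, adjusted p = 0.00538 from edgeR). For Edaradd it was -1.06 (standard error 0.186, adjusted p = 0.00944 from edgeR), although neither of its effects alone was called. Bmp4, with a difference of -2.68 (adjusted p = 0.0121), and Edar, with -1.22 (adjusted p = 0.0306), did not pass. The difference for Lhx2 passed in 8 of 13 alternative settings, and that for Edaradd in 3 of 13.

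To compare levels between genes, CPM scaled over all 8 libraries was divided by exon length. In E16.5 control, Cdh3 was the highest at 73.1 ± 3.65 CPM per kb (SD, n = 2), followed by Edar at 47.6 ± 11.0 and Lhx2 at 27.7 ± 12.1 CPM per kb. Foxi3 was at 19.3 ± 7.07, Bmp2 at 14.8 ± 0.200 and Sox9 at 12.1 ± 2.35 CPM per kb. Edaradd, at 8.96 ± 0.465 CPM per kb, was below its receptor, and Bmp4 was at 4.33 ± 1.802 CPM per kb. The ligands Eda, at 2.41 ± 0.408, and Fgf20, at 2.38 ± 0.822 CPM per kb, were the lowest. Neighbours in this order overlapped between Lhx2 and Foxi3, between Foxi3 and Bmp2, and between Eda and Fgf20. In MOF cKO, Lhx2 stood at 3.04 ± 1.61 CPM per kb and Bmp4 at 0.693 ± 0.223 CPM per kb, the lowest of the 10, while Cdh3 remained at 69.7 ± 9.22 CPM per kb.

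**Figure D4:**
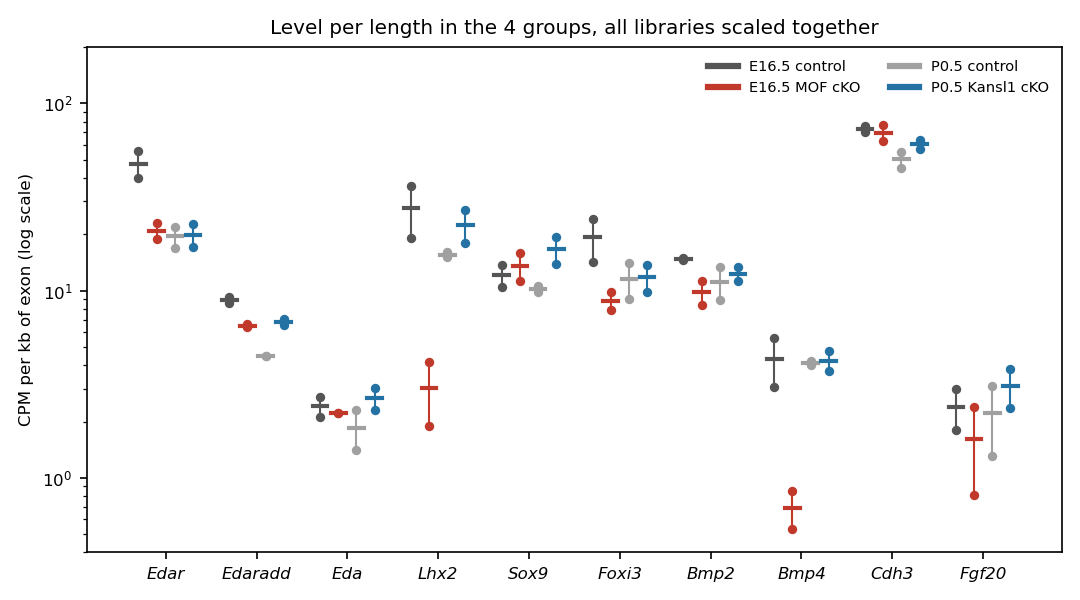
CPM per kb of exon (log axis) of each regulator in the 4 groups, all libraries scaled together. Points are libraries and horizontal bars group means. Lhx2 and Bmp4 are low in E16.5 MOF cKO alone, and Edar is at 47.6 in E16.5 control and between 19.5 and 20.9 in the other groups.

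The controls of the experiments were compared as a description of the levels from E16.5 to P0.5, since stage, isolation and experiment cannot be told apart there. Edar and Edaradd were called lower in P0.5 control, and no regulator was called higher. Of 14565 genes tested, 20.6% were called lower and 19.6% higher, and the median log2 difference of all genes was -0.13. Edar was at 39.9 and 55.3 CPM per kb in E16.5 control and at 16.99 and 21.95 CPM per kb in P0.5 control, a log2 difference of -1.29 (standard error 0.216, adjusted p = 0.000893 from edgeR). Edaradd was at 9.29 and 8.63 CPM per kb in E16.5 control and at 4.496 and 4.46 CPM per kb in P0.5 control, a log2 difference of -1.001 (adjusted p = 0.000233 from edgeR). For Edar the call was lost without E16.5 control replicate 2, with a log2 difference of -0.93 (adjusted p = 0.0133). Cdh3 (-0.54, adjusted p = 0.0141), Lhx2 (-0.83, adjusted p = 0.0853) and Foxi3 (-0.73, adjusted p = 0.0741) had estimates below 0 that did not pass. For Bmp4 the log2 difference was -0.081 and for Fgf20 -0.071, with adjusted p of 0.852 and 0.926. Markers of cell types differed between the same controls, in CPM scaled over all 8 libraries. Basal markers summed to between 32930 and 34309 CPM at E16.5 and between 19773 and 21008 CPM at P0.5 (3 of 7 called lower), and suprabasal markers to between 3057 and 3743 CPM and between 45890.1 and 81302 CPM (6 of 6 called higher). Melanocyte markers went from 21.96 to 51.2 CPM at E16.5 to 513 to 587 CPM at P0.5 (7 of 7 called higher), and macrophage markers from 17.7 to 41.1 CPM to 162 to 192 CPM (7 of 8 called higher). Merkel cell sums were 36.8 to 36.9 CPM and 11.8 to 12.1 CPM (2 of 5 called lower). Condensate sums were 2.097 to 3.87 CPM and 14.5 to 26.2 CPM (4 of 6 called higher), and skeletal muscle sums 1.02 to 1.67 CPM and 4.59 to 233 CPM (3 of 5 called higher). The muscle sum of 233 CPM was that of P0.5 control replicate 1. Fibroblast sums (2 of 8 called higher) and endothelial sums (0 of 5 called) overlapped. The part of these markers in the falls of Edar and Edaradd was not tested.

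Taking the groups from high to low, Edar was highest in E16.5 control and its other 3 groups overlapped with their neighbours in the order. Edaradd ran from E16.5 control through Kansl1 cKO and MOF cKO, which overlapped, to P0.5 control. Lhx2 was lowest in MOF cKO, below P0.5 control (15.04 and 16.1 CPM per kb) with no overlap, and E16.5 control and Kansl1 cKO overlapped at the top. Bmp4 was likewise lowest in MOF cKO with no overlap, and its other 3 groups overlapped. Foxi3 and Bmp2 were highest in E16.5 control without overlap, and their other groups overlapped. For Eda, Sox9 and Fgf20 every pair of neighbours overlapped. For Cdh3, P0.5 control was lowest, without overlap with Kansl1 cKO.

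The gene whose profile over the 8 libraries lay nearest to each regulator was found among 12528 genes tested in both experiments, as the smallest Euclidean distance between log2 CPM values centred within each experiment. Lhx2 had Tgfb2 as its nearest gene, at a distance of 0.568, longer than the nearest distance of any other regulator except Fgf20. The median distance over all genes was 3.46 for Lhx2, and from 0.898 (Cdh3) to 2.73 (Bmp4) for the other regulators. A smallest distance lies below the median by construction, so this comparison cannot show how close a match is. Tgfb2 was at 54.8 and 80.2 CPM in E16.5 control and at 4.22 and 11.0 CPM in MOF cKO. Bmp4 was nearest to Tmem8b (0.435), Edar to Zfp846 (0.214), Edaradd to Ccl27a (0.164), Eda to Cenpl (0.137) and Sox9 to Fyn (0.235). Foxi3 was nearest to Slc4a3 (0.253), Bmp2 to Tbc1d12 (0.179), Cdh3 to Cmtm4 (0.104) and Fgf20 to Rnls (0.583). These distances describe likeness over few libraries that share their depth and scaling.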

How the data were processed

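Bulk polyA RNA-seq of mouse skin epithelium was analysed in 2 experiments of 2 control and 2 cKO libraries each. The authors deposited raw counts of reads per gene, made with HTSeq-count on mm10 and not normalized. Their methods name HISAT2 as the aligner, whereas the submitters' processing notes name TopHat2. Each file lists 23432 gene symbols and 5 summary lines that name no gene. The latter, between 21.1% and 26.0% of the listed reads, entered neither the library sizes nor the tests.

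The tools were edgeR 4.0.16 and DESeq2 1.42.0, run with limma 3.58.1 under R 4.3.3. Each experiment was fitted alone after filterByExpr and TMM scaling, with the quasi-likelihood test (two-sided) and Benjamini-Hochberg adjustment over all genes tested. The stage comparison and the difference between deletions came from 1 fit of all 8 libraries. Confidence intervals are edgeR's estimate with its moderated degrees of freedom. Fold changes of all 10 regulators are given, and from each pathway list up to 4 genes called in each direction, by size, if their mean reached 1 CPM. From the BMP list, the uncalled Id3, Id4, Msx1, Msx2, Smad6 and Smad7 are given as well. So are the genes of the EDA and NF-kB list below 0, and Fgfr1, Fgfr2, Fgfr3 and Fgfr4 of the FGF list. The regulators, the lists and the markers were chosen with earlier results of these data known. Alternatives were DESeq2, a likelihood ratio test, other scalings and filters, an adjusted p of 0.05, the replicate number as a block, 1 fit of all libraries and leaving out each library in turn, while a block that crosses the numbers of the Kansl1 experiment was added after seeing the data. Exon lengths and overlaps came from GENCODE M21, and promoters from RefSeq. The tests were checked on simulated counts. Replicate libraries of each group differed by more than sampling noise in a chi-square test of their counts.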

Additional observations from a re-analysis of the deposited data

Results flagged for a closer look

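The effects of the deletions on Lhx2 differed by -3.71 on the log2 scale (MOF effect minus Kansl1 effect, adjusted p = 0.00538 in edgeR's joint fit of all 8 libraries). Lhx2 was lower in both MOF cKO libraries than in both E16.5 controls and higher in both Kansl1 cKO libraries than in both P0.5 controls. The adjusted p rose above 0.01 when E16.5 control replicate 2 (-3.04, 0.0154), MOF cKO replicate 1 (-3.26, 0.0139), P0.5 control replicate 1 (-3.67, 0.0246), P0.5 control replicate 2 (-3.77, 0.0130) or Kansl1 cKO replicate 1 (-3.40, 0.0114) was left out, and its highest value over the 13 alternatives was 0.0246.

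The effects on Edaradd differed by -1.06 (adjusted p = 0.00944 in the same fit), with the MOF cKO libraries below and the Kansl1 cKO libraries above their controls. This difference missed an adjusted p of 0.01 in each fit without 1 library, where the value lay between -1.12 and -0.95, and with RLE (0.0133) and upper-quartile (0.0112) factors. Its adjusted p ranged from 0.000240 to 0.0474 over the 13 alternatives. Each deletion was studied at 1 stage and in 1 kind of isolate, which cannot be told apart from the deletion.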

How the results depend on the processing

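Edar, Lhx2 and Bmp4 were called lower in MOF cKO in all 14 alternatives, and no regulator was called in Kansl1 cKO in any of 15. The count called lower in MOF cKO rose from 3 to 6 with scaling by library size alone, which moved the median of all genes to -0.32, and to 5 when every gene with at least 1 count was kept, with a likelihood ratio test, with replicate number entered as a block and at an adjusted p of 0.05. The block called Foxi3 and Bmp2 lower in addition. The count was 3 to 4 when 1 library was left out, fits in which the lone library of a group is assumed to vary like the other groups. Under the same 5 settings, all genes called lower numbered 2743, 2197, 2139, 2263 and 2296, beside 1338, and 769 beside 1395 were called higher by library size alone. The cause of these moves was not tested.

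Among the lists in MOF cKO, scaling by library size alone gave 5 EDA and NF-kB, 1 BMP, 3 FGF and 1 junction gene called lower, and 2 BMP and 3 junction genes called higher. Upper-quartile factors gave 1 EDA and NF-kB and 1 FGF gene lower. FGF genes called lower were 1 with DESeq2, with at least 1 count, with the likelihood ratio test, with the block and at an adjusted p of 0.05, which also gave 1 BMP gene lower. Other placode genes called higher were 3 with DESeq2 and 2 in those last 4 settings. The block gave 5 EDA and NF-kB genes higher, and the fit of all libraries gave 3 junction genes higher. Without 1 library, FGF genes lower were 0 to 2, EDA and NF-kB genes lower 0 to 1 and higher 3 to 5, and other placode genes higher 1 to 2.

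In Kansl1 cKO, genes called lower and higher were 66 and 35 with DESeq2, 117 and 73 with at least 1 count, 114 and 71 with the likelihood ratio test and 1 and 0 by library size alone. Without 1 library they were 4 to 197 and 0 to 76, the highest without Kansl1 cKO replicate 2. The controls were littermates, but the sources used here do not say which numbers share a litter, and pairing was not established. Same-numbered libraries deviated together with a correlation of 0.21 in the MOF experiment and -0.20 in the Kansl1 experiment. A crossed pairing as block, added after seeing the data, called 1 gene lower and 0 higher.

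Regulators whose deletion effects differ were 1 with RLE or upper-quartile factors, 4 with the likelihood ratio test and 0 to 1 without 1 library, beside 2. Regulators lower in P0.5 control were 1 to 2 without 1 library.

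Values near 0 changed sign. In MOF cKO, Sox9 was -0.14 by library size alone. Without 1 library it ranged from -0.11 to 0.39, Eda from -0.28 to 0.069, Cdh3 from -0.21 to 0.057 and Fgf20 from -1.55 to 0.012. In Kansl1 cKO, Edar was -0.013 with DESeq2 and with RLE factors, -0.048 with upper-quartile factors, -0.049 by library size alone, -0.037 with at least 1 CPM in 2 libraries and -0.00042 with the block. Bmp4 was -0.024, -0.019 and -0.014 with upper-quartile factors, by library size alone and with at least 1 CPM in 2 libraries. Foxi3 was 0.013 with at least 1 count, 0.00072 with the likelihood ratio test, 0.014 with the block and with the crossed pairing and 0.031 with all libraries in 1 fit. Without 1 library, Edar ranged from -0.25 to 0.19, Bmp4 from -0.20 to 0.18, Foxi3 from -0.30 to 0.33, Bmp2 from -0.16 to 0.40 and Fgf20 from -0.019 to 1.18. Between the controls, RLE factors gave 0.052 for Bmp4 and 0.054 for Fgf20, and without 1 library Bmp4 ranged from -0.44 to 0.52, Fgf20 from -0.86 to 0.43 and Sox9 from -0.42 to 0.064. At these depths Fgf20, with 18 to 149 counts a library, was the regulator measured with the least precision.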
